A study of Mus musculus with 5 samples.

Results

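Elastic fibres are composite threads of the extracellular matrix in which a core of cross-linked elastin is laid down on a scaffold of fibrillin microfibrils. The 10 genes described here encode the components of that system: elastin (*Eln*), fibrillin-1 (*Fbn1*), the microfibril-associated glycoproteins *Mfap2* and *Mfap5*, the latent TGF-β binding protein *Ltbp1*, the long fibulins *Fbln1* and *Fbln2*, and the short fibulins *Fbln5* (fibulin-5), *Efemp1* (fibulin-3) and *Efemp2* (fibulin-4). They were taken by name from the 21835 genes of the expression table. Short fibulins carry elastin to microfibrils and help its cross-linking, microfibrils hold latent TGF-β through the latent TGF-β binding proteins, and in the lung the fibres provide recoil and are made largely by fibroblasts and smooth muscle cells.

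Cancer-associated fibroblasts (CAFs), the fibroblasts of tumor stroma, were isolated from mouse lung and cultured. CAF-vec cells, with the genotype given as WT control, carried the empty vector (2 samples), and CAF-200 cells overexpressed the miR-200 cluster (miR-200a, miR-200b and miR-429) after lentiviral infection and drug selection (3 samples). The age and strain of the mice and the number of CAF isolates or clones are not given in the sources used here. RNA is described as extracted in replicate, by the study's methods 3 times per group, but only 2 CAF-vec samples are available here. The *p* values thus measure the spread between these samples, which may be technical. Poly(A)-selected RNA of the 5 samples was sequenced, and the deposited values are in CPM, in which each sample is scaled to the same total.

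The members were compared between CAF-200 and CAF-vec to ask how miR-200 overexpression altered this gene group. Of 10 members, 8 were expressed well enough to test, and in each of these 8 the CAF-200 values lay wholly above (6 members) or wholly below (2 members) the CAF-vec values. Among all genes tested, 24.3% lay wholly above and 37.3% wholly below. *Efemp1* rose 6.18-fold and *Fbn1* rose 1.74-fold in CAF-200, while *Fbln5* fell 2.39-fold, as measured on log2(CPM + 0.5). *Eln* itself was near 0 and *Mfap2* was listed at 0 in every sample. The other 5 tested members did not pass the test.

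The cluster expressed by CAF-200 cells encodes 3 mature miRNAs that fall into 2 seed groups. Their sequences (RefSeq, GRCm38.p6, mouse chromosome 4, minus strand) are shown because the seed, bases 2 to 8, printed in capitals, defines the motif looked for in the members. miR-200b-3p lies at chr4:156055685-156055706, miR-429-3p at chr4:156053916-156053937 and miR-200a-3p at chr4:156054911-156054932.
mmu-miR-200b-3p: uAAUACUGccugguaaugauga
mmu-miR-429-3p: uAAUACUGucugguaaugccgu
mmu-miR-200a-3p: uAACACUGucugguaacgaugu

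The first pair share the seed AAUACUG, matched by CAGTATT in a transcript, and miR-200a-3p has the seed AACACUG, matched by CAGTGTT. None of the 10 members held either 7-base match in its longest annotated 3′-UTR (0 of 10), nor in any other annotated 3′-UTR. Among the 12052 tested genes with an annotated 3′-UTR, 15.7% held CAGTATT, 20.8% held CAGTGTT and 30.3% held either. The members' longest 3′-UTRs ran from 404 bases (*Mfap2*) to 4177 bases (*Fbln5*), against a median of 1174 bases over all tested genes. Only the transcribed strand was searched.

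The shorter 6-base match to bases 2 to 7 of miR-200a-3p, AGTGTT, occurred 3 times in the *Fbln5* 3′-UTR and once in that of *Efemp2*, and 41% of all tested genes with a 3′-UTR hold this motif. The other 8 members had no 6-base match to any of the 3 miRNAs (AGTATT, the 6-base match to miR-200b-3p and miR-429-3p, is in 35.9% of those genes). Of the matched genes *Fbln5* fell, whereas *Efemp2* was higher in every CAF-200 sample without passing the test. The 4 windows are printed as the only such matches among the members. Each is 30 bases of the transcript (GENCODE M21, GRCm38) with the match in capitals, at chr12:101750519-101750524, chr12:101750149-101750154 and chr12:101747540-101747545 (*Fbln5*, minus strand) and at chr19:5482440-5482445 (*Efemp2*, plus strand).
Fbln5 first site: cagttatccaaaAGTGTTcatcttagcccc
Fbln5 second site: aaaatttgtatgAGTGTTtaaccttttctt
Fbln5 last site: cttggactcaggAGTGTTatttgcccagat
Efemp2 site: cagcccctaaggAGTGTTtatctattatcc

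A match is a description of the letters and was not tested as a site.

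Before the members, the samples were checked against their labels. Of 9 fibroblast markers, 8 were detected, whereas *Fap* was below 0.5 CPM in every sample. All 6 epithelial markers and 3 of 4 endothelial markers were below 0.5 CPM throughout, and the immune markers (4 genes, 2 of them below 0.5 CPM) summed to 7.23 and 7.32 CPM in CAF-vec and to 4.72, 5.67 and 5.93 CPM in CAF-200. The mature miRNAs are not measured by these libraries. *Zeb1*, a well-known miR-200 target, was at 43.5 and 50.7 CPM in CAF-vec and at 37.8, 37.5 and 34.1 CPM in CAF-200. The CAF-vec samples stood further apart from each other (SD of the log2 difference 0.49 over tested genes) than the CAF-200 samples did (0.192 to 0.204). In addition, the 3 CAF-200 columns list the same 6127 genes at 0 and hold 788 to 1100 values between 0 and 0.001 CPM each, of which CAF-vec columns hold 0. In the 289, 469 and 331 genes where only CAF-200 1, 2 or 3 reached 0.001 CPM and the other two were above 0, those 2 held a nearly fixed share of its value, with medians from 0.112% to 0.302%. In these genes the CAF-200 columns thus depend on one another. How those values arose is not given in the sources used here, whether higher values depend on one another too was not tested, and the *p* values treat the samples as independent.

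**Figure D1:**
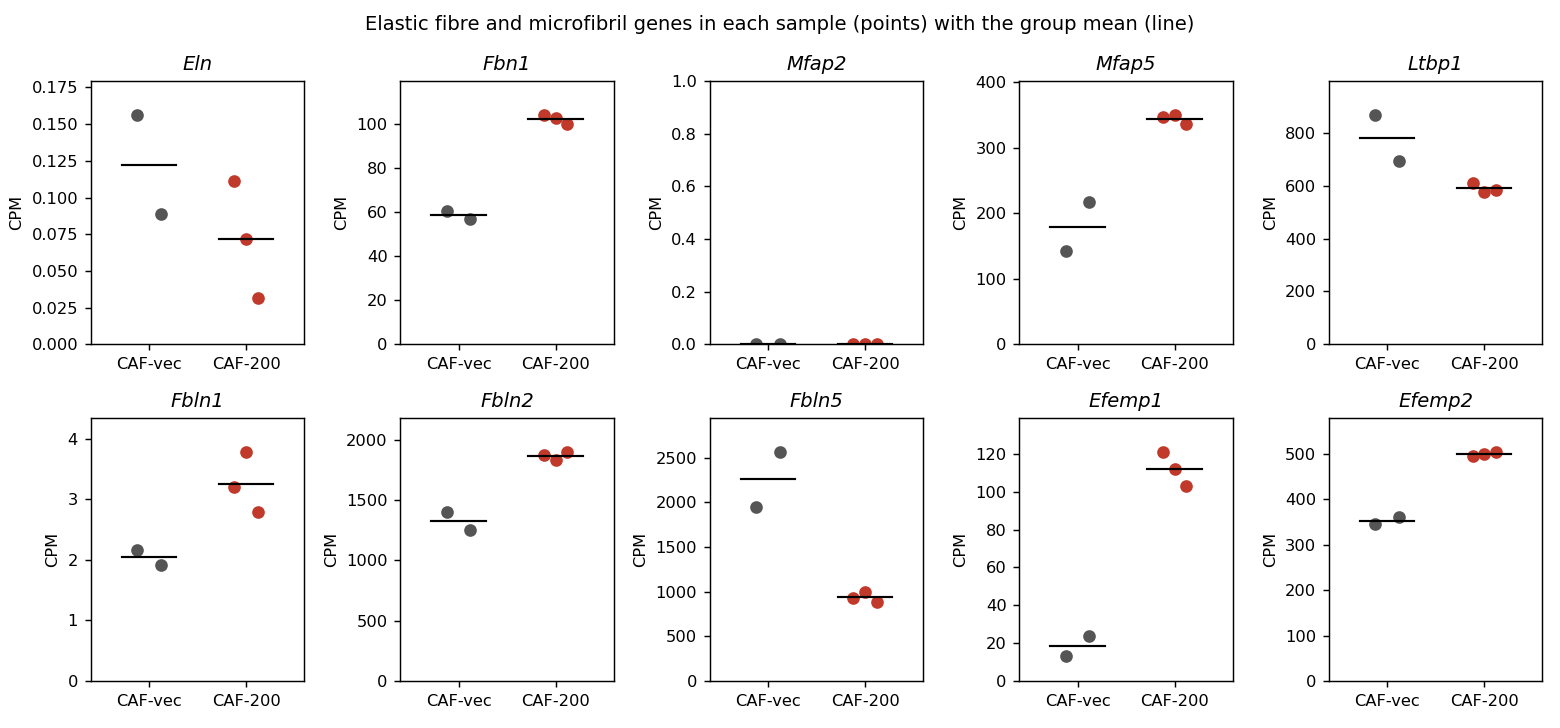
CPM of the 10 members in the 2 CAF-vec samples (grey) and the 3 CAF-200 samples (red), each panel on its own linear axis from 0; points are samples and lines are group means. Both groups are separate for 8 members, whereas *Eln* overlaps below 0.2 CPM and *Mfap2* is at 0.

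Elastin, the polymer that gives the fibre its stretch, had very little mRNA. *Eln* (ENSMUSG00000029675, chr5:134702593-134747323, GRCm38) was at 0.156 and 0.0888 CPM in CAF-vec and at 0.111, 0.0718 and 0.0314 CPM in CAF-200. The groups overlapped, and the gene was below the 0.5 CPM filter and was not tested. Its exons overlap those of *Gm30003* on the other strand, and whether reads were counted by strand is not given in the sources used here.

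Fibrillin-1 is the main structural protein of microfibrils. *Fbn1* (ENSMUSG00000027204, chr2:125300594-125507993) was at 60.5 and 56.7 CPM in CAF-vec and at 104, 103 and 100.2 CPM in CAF-200, so that the CAF-200 values were all higher and within each group the values lay close together. The log2 fold-change was 0.80 (SE 0.0816, 95% interval 0.60 to 1.00) with an adjusted *p* of 0.00352 (limma, Benjamini-Hochberg over 12175 genes). It thus passed the adjusted *p* threshold of 0.01 but not the log2 fold-change threshold of 1. Both thresholds are those of the study, which applied them to edgeR, whereas here they were applied to limma. When CAF-200 1, 2 or 3 was left out, the adjusted *p* was 0.0334, 0.0335 or 0.0349. The exons of *Fbn1* overlap those of *Gm9913* on the other strand.

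The microfibril-associated glycoproteins bind fibrillin. *Mfap2* (chr4:141010418-141015984) was listed at 0 CPM in all 5 samples. *Mfap5* (chr6:122505845-122529290) was at 142 and 217 CPM in CAF-vec and at 347, 349.6 and 336 CPM in CAF-200. All 3 CAF-200 values were above both CAF-vec values, but the CAF-vec samples differed from each other by 0.60 on the log2 scale. The log2 fold-change of *Mfap5* was 0.97 (SE 0.184, 95% interval 0.51 to 1.42) with an adjusted *p* of 0.0151 in limma, which does not pass the threshold. Without CAF-vec 1 its log2 fold-change was 0.67, and without CAF-vec 2 it was 1.27. With a lone control the spread comes from CAF-200 alone, so *p* values of such fits are not given here or below.

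LTBP-1 tethers latent TGF-β to the matrix. *Ltbp1* (chr17:75005568-75392512) was at 866 and 695 CPM in CAF-vec and at 609.6, 576 and 584 CPM in CAF-200. The CAF-200 values were lower without overlap, by a margin smaller than the gap between the CAF-vec samples. The log2 fold-change was -0.40 (SE 0.13, 95% interval -0.72 to -0.08) with an adjusted *p* of 0.0673 in limma. Without CAF-vec 1 it was -0.24, and without CAF-vec 2 it was -0.56.

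The long fibulins are secreted glycoproteins of microfibrils and basement membranes. *Fbln2* (chr6:91212455-91272540) was abundant, at 1398 and 1250.2 CPM in CAF-vec and 1872, 1830.5 and 1898 CPM in CAF-200. *Fbln1* (chr15:85205949-85286535) was scarce, at 2.16 and 1.92 CPM in CAF-vec and 3.21, 3.78 and 2.79 CPM in CAF-200. In both genes each CAF-200 sample exceeded each CAF-vec sample. Neither passed the test in limma. The log2 fold-change was 0.50 for *Fbln2* (SE 0.123, adjusted *p* = 0.031) and 0.56 for *Fbln1* (SE 0.155, adjusted *p* = 0.0424). Without CAF-vec 1 or CAF-vec 2, *Fbln2* had a log2 fold-change of 0.58 or 0.42.

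The short fibulins *Efemp1* and *Fbln5* had the largest differences of the 8 tested members, in opposite directions, whereas *Efemp2* had a smaller one that did not pass. *Fbln5* (ENSMUSG00000021186, chr12:101746565-101819055), whose product links elastin to cells and to the LOX-family cross-linking enzymes, was at 1948 and 2562 CPM in CAF-vec and at 925, 993 and 886 CPM in CAF-200. The CAF-200 values lay together and far below both CAF-vec values. *Fbln5* fell by 1.26 on the log2 scale (SE 0.159, 95% interval -1.65 to -0.87, adjusted *p* = 0.00567 in limma), which passed both thresholds and was the 215th largest fall of the genes tested. With CAF-200 1, 2 or 3 left out, the adjusted *p* was 0.0407, 0.0384 or 0.0465, and without a filter on low values it was 0.0122.

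*Efemp1* (ENSMUSG00000020467, chr11:28853204-28926743) encodes fibulin-3, a matrix glycoprotein of connective tissue. It was at 13 and 23.9 CPM in CAF-vec and at 121, 112 and 103 CPM in CAF-200. The lowest CAF-200 value was several times the highest CAF-vec value, although the CAF-vec samples themselves differed by 0.86 on the log2 scale. *Efemp1* rose by 2.63 on the log2 scale (SE 0.251, 95% interval 2.01 to 3.25, adjusted *p* = 0.00318 in limma), the 24th largest rise of the genes tested. It passed both thresholds. Without CAF-vec 1 the log2 fold-change was 2.20 and without CAF-vec 2 it was 3.06, and with CAF-200 1, 2 or 3 left out the adjusted *p* was 0.0242, 0.0261 or 0.028.

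*Efemp2* (chr19:5473954-5482517) encodes fibulin-4, which brings lysyl oxidase to elastin. It was at 345 and 359.9 CPM in CAF-vec and at 496, 499 and 504 CPM in CAF-200, with the smallest log2 spread of the tested members in both groups. The log2 fold-change was 0.50 (SE 0.0909, 95% interval 0.28 to 0.73) with an adjusted *p* of 0.0133 in limma, short of the threshold. The log2 fold-change was 0.47 without CAF-vec 1 and 0.53 without CAF-vec 2. With each sample centred on its median the adjusted *p* was 0.009 in limma. The exons of *Efemp2* overlap those of *Mus81* on the other strand.

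**Figure D2:**
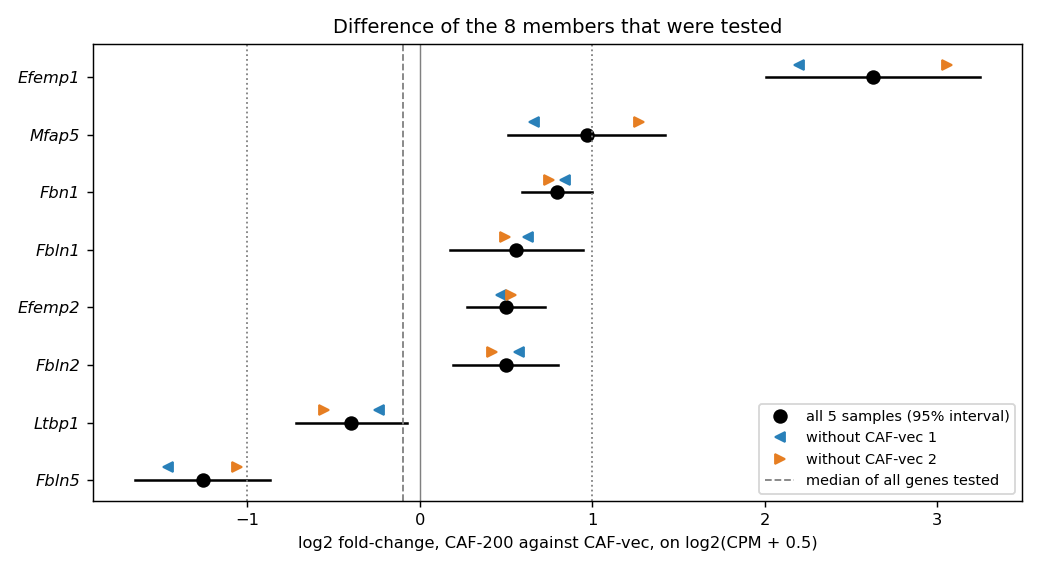
log2 fold-change (CAF-200 against CAF-vec, on log2(CPM + 0.5)) of the 8 tested members with 95% intervals from limma; triangles give the value with one CAF-vec sample left out, dotted lines mark -1 and 1 and the dashed line the median of all genes tested (-0.09). *Efemp1* lies at 2.63 and *Fbln5* at -1.26, and no member changed sign when a CAF-vec sample was left out.

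Counted over the group, 2 of the 8 tested members rose and 1 fell at an adjusted *p* under 0.01 (limma), and among all 12175 genes tested 4.45% rose and 5.57% fell by this rule. With the log2 fold-change threshold added, 1 member rose and 1 fell, and 2.37% of all genes rose and 2.35% fell. The median log2 fold-change was 0.53 over the 8 members and -0.09 over all genes tested. Because a gene was tested only if it reached 0.5 CPM in 2 samples, these counts do not cover *Eln* and *Mfap2*. Fits with a CAF-vec sample left out are not counted, because a lone control has no spread of its own. With any one CAF-200 sample left out 0 members passed (7 of 8 at an unadjusted *p* under 0.05 in limma, beside 31.4% to 33.4% of all genes).

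To compare levels between genes, CPM were divided by exon length (CPM per kilobase of the union of exons). In CAF-vec the order by mean level was *Fbln5* (326 CPM per kilobase), *Fbln2* (208), *Efemp2* (93.1), *Ltbp1* (73), *Mfap5* (50), *Efemp1* (9.06), *Fbn1* (4.83) and *Fbln1* (0.466), with no overlap between neighbours. In CAF-200 it was *Fbln2* (293 CPM per kilobase), *Fbln5* (135), *Efemp2* (132), *Mfap5* (95.9), *Ltbp1* (55.2), *Efemp1* (55), *Fbn1* (8.43) and *Fbln1* (0.747). Here *Fbln5* and *Efemp2* overlapped, as did *Ltbp1* and *Efemp1*, so with this length these neighbours were not separated by their spread. With the length of the longest transcript both pairs were separate, with *Efemp2* before *Fbln5* and *Ltbp1* before *Efemp1*. Summed over all members, the level was 725 and 804 CPM per kilobase in CAF-vec and 781, 778 and 767 in CAF-200, so that the groups overlapped in total while their composition differed.

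Within the short fibulins this difference was large. *Fbln5* made up 74.3% and 77.6% of the summed level per kilobase of the 3 short fibulins in CAF-vec, and 41.3%, 43.5% and 41.1% in CAF-200. *Efemp1* made up 1.68% and 2.46% in CAF-vec, and 18.3%, 16.7% and 16.2% in CAF-200. *Efemp2* made up 24% and 19.9% in CAF-vec, and 40.4%, 39.8% and 42.7% in CAF-200. The shares did not overlap between the groups for any of the 3 genes. They are a description of the values above, not a further test. Per kilobase of the longest transcript, a choice made after the data were seen, the mean share of *Fbln5* was 72.8% in CAF-vec and 39.6% in CAF-200.

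Among the latent TGF-β binding proteins, *Ltbp1* kept the largest share of the summed level per kilobase in all 5 samples, with 46.5% and 50.6% in CAF-vec and 41.4%, 42.6% and 40.8% in CAF-200. *Ltbp2*, a family member that associates with fibrillin rather than with latent TGF-β, had 11.5% and 11.1% in CAF-vec and 26.5%, 26.2% and 28.5% in CAF-200.

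**Figure D3:**
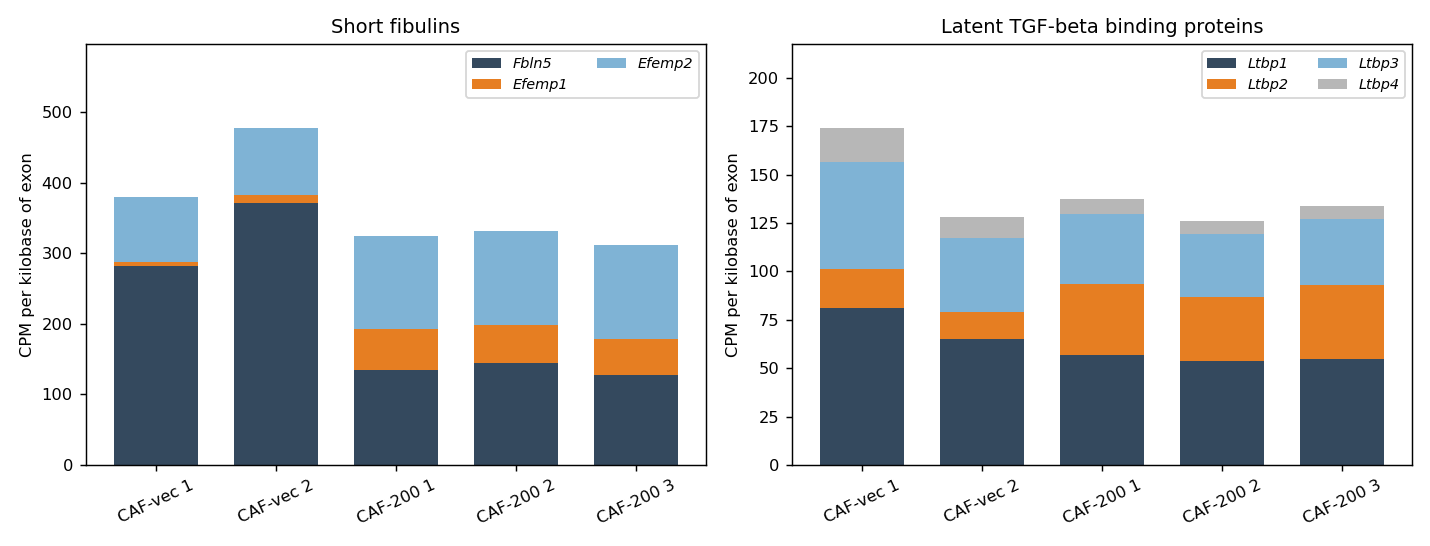
Summed CPM per kilobase of exon in each sample for the 3 short fibulins (left) and the 4 latent TGF-β binding proteins (right), stacked by gene. *Fbln5* makes up at least 74.3% of the left bars in CAF-vec and at most 43.5% in CAF-200, and the *Ltbp2* segment is taller in the 3 CAF-200 samples.

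The other genes of elastic fibre assembly and turnover were described from a list of 38 genes, of which 30 were tested. At an adjusted *p* under 0.01 in limma 9 fell and 2 rose, beside 5.57% and 4.45% of all genes tested. Of these, 4 that fell and 2 that rose also passed the log2 fold-change threshold, beside 2.35% and 2.37% of all genes. The median log2 fold-change of the list was -0.39. Fits with a CAF-vec sample left out were again not counted. With one CAF-200 sample left out, whichever it was, 0 genes of the list passed in limma, although 17 to 18 of 30 had an unadjusted *p* under 0.05 (31.4% to 33.4% of all genes), and of all genes tested 0 or 1 passed.

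Among the microfibril-associated proteins, *Ltbp2* was at 164 and 116 CPM in CAF-vec and at 299, 271 and 312 CPM in CAF-200, a rise of 1.08 on the log2 scale (adjusted *p* = 0.00881 in limma). *Emilin1* and *Emilin2*, glycoproteins at the interface of elastin and microfibrils, fell by 1.09 and 0.59. *Ltbp4*, which binds fibulin-5 and latent TGF-β, had a log2 fold-change of -0.93 without passing (adjusted *p* = 0.0227 in limma). The value was -0.60 without CAF-vec 1 and -1.27 without CAF-vec 2. *Mfap4*, at 0.272 to 1.28 CPM, overlapped between the groups (adjusted *p* = 0.176). Its log2 fold-change turned on the controls, with -0.16 without CAF-vec 1 and -1.07 without CAF-vec 2. *Fbn2*, the fibrillin of the embryo, was listed at 0 in every sample. Of the ADAMTS-type proteins of microfibrils, *Adamts10* fell by 0.56 and *Adamtsl4* by 1.05. *Adamtsl4*, *Adamts10*, *Ltbp2* and *Emilin2* did not pass under 8, 6, 6 and 5 of 13 alternatives.

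Of the lysyl oxidase family of cross-linking enzymes 5 members were tested, of which 1 rose, 1 fell and 3 did not pass. *Loxl3* rose by 1.53 on the log2 scale, from 107 and 77.1 CPM in CAF-vec to 264, 245 and 279.5 CPM in CAF-200 (adjusted *p* = 0.00369 in limma). *Loxl1*, the enzyme that binds fibulin-5 and is directed at elastin, fell by 0.76, from 323 and 303 CPM to 197, 187 and 173 CPM (adjusted *p* = 0.00627). *Lox* was at 1239.9 and 1576 CPM in CAF-vec and at 804, 890.3 and 769 CPM in CAF-200, without overlap. It did not pass (log2 fold-change -0.77, adjusted *p* = 0.0163 in limma), with -0.94 without CAF-vec 1 and -0.60 without CAF-vec 2. *Loxl2* and *Loxl4* had log2 fold-changes of 0.88 and -0.35 (adjusted *p* = 0.0674 and 0.0779 in limma). These were 1.38 and -0.18 without CAF-vec 1, and 0.38 and -0.53 without CAF-vec 2.

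Of the TGF-β ligands held by microfibrils, *Tgfb2* fell by 1.37 on the log2 scale, from 23.9 and 22.5 CPM to 8.7, 9.45 and 7.89 CPM (adjusted *p* = 0.00254 in limma), and *Tgfb3* fell by 0.68. *Tgfb1* was at 19.8 and 17.9 CPM in CAF-vec and at 28.7, 24.7 and 31.8 CPM in CAF-200, higher without overlap. It did not pass (log2 fold-change 0.58, adjusted *p* = 0.0248 in limma), with 0.65 without CAF-vec 1 and 0.50 without CAF-vec 2. *Tgfb3* lay close to the threshold (adjusted *p* = 0.00991) and did not pass it under 10 of 13 alternatives. Of the elastin receptor complex, *Neu1*, a sialidase, fell by 1.30 and *Ctsa*, its protective protein, by 0.94. *Glb1*, the gene of the elastin-binding protein, did not pass (log2 fold-change -0.33, adjusted *p* = 0.0367 in limma). Its log2 fold-change was -0.38 without CAF-vec 1 and -0.28 without CAF-vec 2. None of the 3 tested elastin-degrading proteases passed: the gelatinase *Mmp2* stood at -0.51 on the log2 scale (limma, adjusted *p* = 0.0152, unadjusted 0.00222), and the cathepsins *Ctsk* and *Ctsl* had 0.03 and 0.04. *Mmp2* had a log2 fold-change of -0.41 without CAF-vec 1 and -0.60 without CAF-vec 2. The sign of *Ctsk* and *Ctsl* depended on which samples were used (*Ctsk* -0.08 without CAF-vec 1, *Ctsl* -0.25 without CAF-vec 2).

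**Figure D4:**
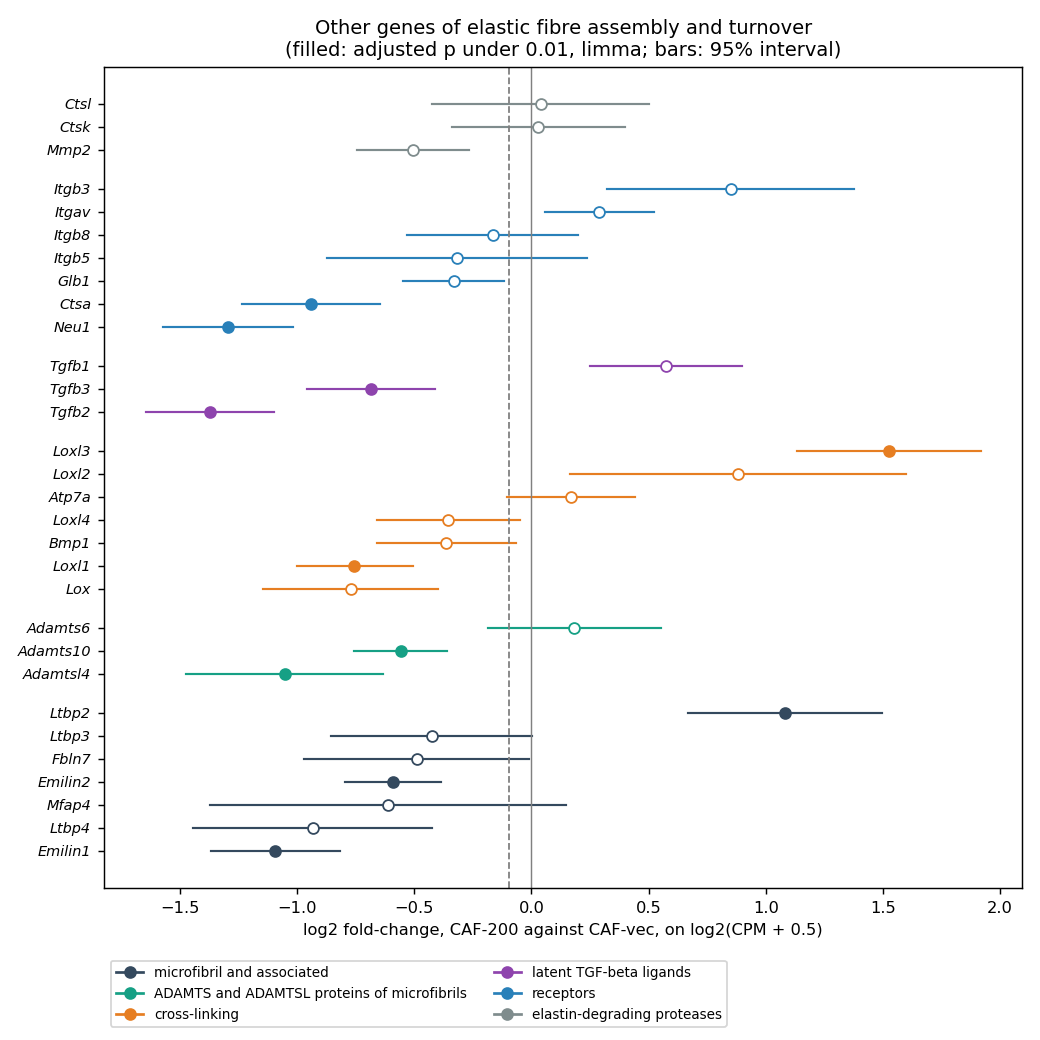
log2 fold-change (CAF-200 against CAF-vec, on log2(CPM + 0.5)) of the 30 tested genes of the wider list, grouped by role, with 95% intervals from limma; filled points passed an adjusted *p* under 0.01 and the dashed line is the median of all genes tested. *Loxl3* and *Ltbp2* are the 2 filled points on the right, and 9 filled points lie on the left.

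Of these 30 genes, 7 held a 7-base match to a miR-200 seed in the longest 3′-UTR, beside 30.3% of all tested genes, and 1 of the 9 that fell, *Tgfb2*, was among them. Neither count exceeds that share. Its windows (GENCODE M21, GRCm38, minus strand, with CAGTGTT in capitals) are printed as the only such matches in a gene of the list that fell. The matches lie at chr1:186625336-186625342 and chr1:186624056-186624062.
Tgfb2 first site: gttttgattcatCAGTGTTtaaaaaaaaaa
Tgfb2 second site: gtttgagctccaCAGTGTTtcagccttttc

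Several lists of cell type markers differed between the groups. The fibroblast list (9 genes) summed to 17165 and 13344 CPM in CAF-vec and to 11432, 11609.8 and 10634 CPM in CAF-200, without overlap. Within it *Dcn* rose by 2.75 and *Thy1* by 1.46 on the log2 scale (adjusted *p* = 8.4e-04 and 0.0029 in limma), whereas the collagen genes *Col1a1* and *Col1a2* had log2 fold-changes of -0.91 and -0.75 without passing. The smooth muscle list (5 genes) summed to 152 and 167 CPM in CAF-vec and to 1023, 1008 and 1117 CPM in CAF-200, through *Acta2*, *Tagln* and *Cnn1*. *Des*, of the same list, overlapped between the groups, with means of 0.57 CPM in CAF-vec and 0.588 CPM in CAF-200. The study treats α-SMA, the product of *Acta2*, as a myofibroblast marker, so *Acta2* is not particular to smooth muscle. *Myh11*, the myosin that defines mature smooth muscle, was below 0.5 CPM in every sample. The mesothelial list (3 genes, 2 of them below 0.5 CPM) summed to 5.92 and 6.89 CPM in CAF-vec and to 1.54, 1.22 and 1.09 CPM in CAF-200. The pericyte list (2 genes) summed to 2.67 to 5.33 CPM over all samples. Their part in the differences of the elastic fibre genes was not tested, and in bulk RNA fewer cells of a type and less RNA per cell cannot be told apart.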

How the data were processed

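The authors deposited 1 table of 21835 genes by 5 samples, CPM values in a file named for TMM normalization. Per the labels, libraries were stranded poly(A) libraries read in pairs, and the submitters' notes name FastQC, cutadapt, Trimmomatic, STAR, RSEM, edgeR and GRCm38 (mm10) without versions. The deposited CPM are not whole reads: between 18.6% and 57.8% of low values per sample lay within 0.05 of a multiple of the commonest low value. Whole reads were therefore not recovered, no count test was run and depth is unknown. Columns summed to 999956 to 1000111 CPM, and 0 sample columns were left out.

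Values were compared as log2(CPM + 0.5) with limma 3.58.1 (R 4.3.3, variance trend) for the 12175 genes that reached 0.5 CPM in 2 or more samples, and *p* values were adjusted over all of these by the Benjamini-Hochberg method. Fold changes on this scale understate changes of low genes. "Rose" and "fell" mean an adjusted *p* under 0.01. The members and lists were chosen with earlier results of these data known. Named genes are all 10 members, genes of the wider list past the adjusted *p*, and *Fbn2*, *Lox*, *Loxl1*, *Ltbp4* and *Mfap4* whatever their values. Marker genes are named for the check of cell type, and *Zeb1*, *Tgfb1*, *Glb1*, *Loxl2*, *Loxl4*, *Mmp2*, *Ctsk*, *Ctsl*, *Mus81*, *Gm9913* and *Gm30003* (exon overlaps) were added after values were seen. Names, lengths, positions and 3′-UTRs came from GENCODE M21 (21795 of 21835 genes matched). Alternatives were other pseudocounts, filters, scalings and thresholds, no variance trend, each sample left out, the replicate number as a block, and other lengths and seed matches. Python 3.11.15, pandas 2.3.3, numpy 2.4.6 and matplotlib 3.10.9 were used.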

Additional observations from a re-analysis of the deposited data

How the results depend on the processing

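Among the 8 tested members and the named genes of the wider list, the sign changed only for *Ctsk* (-0.077 to 0.138 with one sample left out, below 0 without CAF-vec 1 or CAF-200 2) and *Ctsl* (-0.254 to 0.333 with one sample left out, below 0 without CAF-vec 2, and -0.022 with quantile normalization), and marker genes and *Zeb1* were not recomputed. Of the members, 2 passed both thresholds and 3 the adjusted *p*. Both thresholds were passed by 1 member without a filter on low values and by 0 to 3 with one sample left out, and the adjusted *p* by 7 members at a threshold of 0.05 and by 0 to 7 with one sample left out. Of the wider list, 6 genes passed both thresholds, 11 with a log2 fold-change beyond 0.5 and 0 to 8 with one sample left out. Its 11 genes past the adjusted *p* became 7 with quantile normalization, 17 at a threshold of 0.05 and 0 to 20 with one sample left out. Of all genes tested, 10.9% passed the adjusted *p* with quantile normalization, 30.5% at a threshold of 0.05, 28.8% without CAF-vec 1 and 49.9% without CAF-vec 2, where the highest of these counts arose. The 0 calls came from leaving out a CAF-200 sample, where 2 samples a group remain, and leaving out a CAF-vec sample leaves a lone control that is assumed to vary like CAF-200. Without a filter on low values, 194 of all 16044 genes fell and 218 rose past both thresholds. With one CAF-200 sample left out, 0 or 1 of all 12175 genes passed both. The share of all genes past a log2 fold-change of 0.5 was not computed, so the 11 genes have no such comparison. Counts past both thresholds with a CAF-vec sample left out rest on a lone control and were not compared with all genes. Members with a seed match numbered 2 with a 6-base match. The median of all genes was -0.09, -0.02 with quantile normalization and 0.00 with centring.

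With the replicate number as a block, 1 member (*Efemp1*) passed both thresholds and 1 the adjusted *p*. Of the wider list 0 genes passed either rule in limma (17 of 30 at an unadjusted *p* under 0.05, beside 33.3% of all genes). Only numbers 1 and 2 are shared, CAF-200 3 does not enter the fold-change, and the samples share only a number: deviations of same-numbered samples correlated across genes with r = 0.249 and 0.134. Over all genes the block left 171 calls at the adjusted *p*, against 1220 without it.

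The depth is unknown, so no interval for counting error was given, and *Eln* and *Mfap2* could not be compared.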
